A study of Mus musculus with 14 samples.

Results

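Long-chain fatty acids enter the hepatocyte, are bound in the cytosol and are joined to coenzyme A before they can be oxidised or built into triglyceride. The 10 genes described here encode proteins of these 3 steps: the uptake proteins *Cd36*, *Slc27a2* and *Slc27a4*, the fatty acid binding proteins *Fabp1*, *Fabp2*, *Fabp4* and *Fabp5*, and the long-chain acyl-CoA synthetases *Acsl1*, *Acsl4* and *Acsl5*. They were taken by symbol from the table of 25212 genes counted in each liver, and all 10 were among the 14252 genes that passed the filter on low counts. Liver RNA came from 14 male C57BL/6 mice, all with diet-induced obesity on a high-fat diet (HFD) that was given before and after surgery. The groups were 5 DIO mice that had no operation, 4 mice with the gallbladder joined to the ileum and the common bile duct ligated (GB-IL), and 5 that had undergone Roux-en-Y gastric bypass (RYGB). The labels place every liver at 8 weeks. None of the 14 livers came from a mouse with a sham operation, so the procedure itself and its metabolic outcome cannot be told apart in a comparison with DIO.

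*Fabp1* encodes the liver fatty acid binding protein, an abundant cytosolic protein of hepatocytes, and *Fabp2* its intestinal relative. *Fabp4* and *Fabp5* are known from adipocytes, macrophages and endothelial cells, where they carry fatty acids between membranes and enzymes. *Cd36* is a scavenger receptor that takes up fatty acids, *Slc27a2* and *Slc27a4* encode FATP2 and FATP4, which couple uptake to activation, *Acsl1* and *Acsl5* are the main hepatic long-chain synthetases, and *Acsl4* prefers arachidonic acid. Several of these genes are classical targets of the nuclear receptor PPARα, which senses fatty acids.

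Between 18223135 and 28656631 counts were assigned to genes in each liver. Levels are given as CPM, the count of a gene scaled to a common library size with the TMM method, and all differences are log2 fold changes from edgeR's quasi-likelihood test with p-values adjusted by the Benjamini-Hochberg method over the 14252 genes at a false discovery rate (FDR) of 0.05. The labels number the livers within a group, but nothing says that a number is shared between groups. All 7 hepatocyte markers counted were found in every liver. Their summed level was 117035 to 134255 CPM in DIO and 116527 to 153560 CPM in RYGB. In GB-IL livers 1 to 4 it was 97596.5, 109244, 79981 and 118295 CPM. On this scale the first 3 were below every DIO liver. The TMM factors left out differed between livers (0.922 in GB-IL liver 2 and 1.06 in DIO liver 2). *Alb* was the largest part of the sum, at 91668 to 107942 CPM (TMM-scaled) in DIO. Of the 7 markers 3 were higher and 4 lower in GB-IL against DIO (median -0.098). *Alb* and *Ttr* were at -0.37 and -1.20, *Apoa1* and *Tat* at 0.66 and 1.76. The GB-IL livers stood apart from one another. The first principal component (48.5% of the variance) put GB-IL livers 1, 2 and 3 at scores of 134, 106 and 20.1, and GB-IL liver 4 at -35.3 among the DIO livers (-45.7 to -21.9). RYGB livers 1 to 5 were at -2.14, -24.3, -33.8, -32.2 and 17.4, so that RYGB livers 2, 3 and 4 also lay among the DIO livers. GB-IL liver 1 held skeletal muscle transcripts, with a summed level of 1068 CPM for 6 markers against at most 2.86 CPM in each of the other livers. GB-IL liver 4 held the highest adipocyte sum, 22.8 CPM for 6 markers. For the genes named at the outset, the value without GB-IL liver 1 or 4 is also given where that omission changed a call. For single cell type markers and the other genes of fatty acid handling, values without these livers are not given.

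Promoter sequence was available from RefSeq (GRCm38.p6) for 8 of the 10 genes, with 9 start sites. The 250 bases before each start were searched on both strands. The nuclear receptor core AGGTCA was found in 3 of the 9 (those of *Cd36*, *Fabp1* and *Slc27a2*), against 14% of all 32851 promoters of the table. The direct repeat DR1, to which PPARα and HNF4α can bind, was searched as 2 copies of AGGNCA 1 base apart. It was found in *Fabp1* only, against 0.338% of all promoters. This match includes 1 match to the core. The C/EBP motif TTGCNNAA was found in *Fabp1* and *Fabp2* (9.56% of all promoters) and the TATA motif TATAAA in *Fabp1* (12.4%). The HNF1 motif, GTTAAT and ATTAAC 1 base apart (0.00913% of all) and the HNF4A motif CAAAGTCCA (0.384% of all) were in none of the 9. The stretches before the annotated gene starts of *Fabp1* (chr6:71199629-71199826, plus strand), *Fabp2* (chr3:122894822-122895071, plus strand) and *Acsl4* (chrX:142390536-142390785, minus strand) are shown 5′ to 3′. *Fabp1* and *Fabp2* had the lowest levels relative to DIO in single GB-IL livers, and *Acsl4* was the gene of a known sequence with the largest positive differences from DIO. Capitals mark the C/EBP match and, in *Fabp1*, the direct repeat (on the opposite strand, 67 bases before the RefSeq start).
Fabp1: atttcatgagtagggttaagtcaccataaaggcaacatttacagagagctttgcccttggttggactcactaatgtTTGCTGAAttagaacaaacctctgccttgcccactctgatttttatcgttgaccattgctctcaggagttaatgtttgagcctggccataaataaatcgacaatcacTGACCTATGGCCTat
Fabp2: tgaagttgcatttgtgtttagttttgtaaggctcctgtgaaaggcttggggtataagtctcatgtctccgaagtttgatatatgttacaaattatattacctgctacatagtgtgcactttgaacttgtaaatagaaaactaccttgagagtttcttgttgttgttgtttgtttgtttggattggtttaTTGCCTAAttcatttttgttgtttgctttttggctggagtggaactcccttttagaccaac
Acsl4: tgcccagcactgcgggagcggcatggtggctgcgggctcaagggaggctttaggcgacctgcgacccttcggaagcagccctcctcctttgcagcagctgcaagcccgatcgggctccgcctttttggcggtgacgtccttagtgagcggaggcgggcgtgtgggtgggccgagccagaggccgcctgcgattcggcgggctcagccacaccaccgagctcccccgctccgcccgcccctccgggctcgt

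In DIO liver the binding protein of the hepatocyte outweighed all the others. Levels of different genes were compared per length, as CPM per kb of the principal transcript. *Fabp1* stood at 7406 ± 1311 CPM per kb (SD, n = 5), followed by *Slc27a2* at 479 ± 74.6 and *Acsl1* at 279 ± 43.7. The ranges of these 3 did not overlap. *Fabp2* (132 ± 51.0) and *Acsl5* (90.6 ± 29.2) followed with overlapping ranges, and then *Cd36* (32.3 ± 11.01), which overlapped neither neighbour. At the low end *Fabp4* (11.7 ± 2.24), *Slc27a4* (11.5 ± 2.59), *Acsl4* (7.51 ± 1.97) and *Fabp5* (3.39 ± 1.56) each overlapped the next. In GB-IL every pair of neighbours in the order overlapped, and *Fabp5* moved from the last place to the 8th (32.6 ± 21.2 CPM per kb, n = 4). It also stood 8th in RYGB (22.4 ± 16.6, n = 5), where *Fabp1* remained apart from the next gene, *Slc27a2* (4225 ± 1359 against 415 ± 123 CPM per kb).

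**Figure D1:**
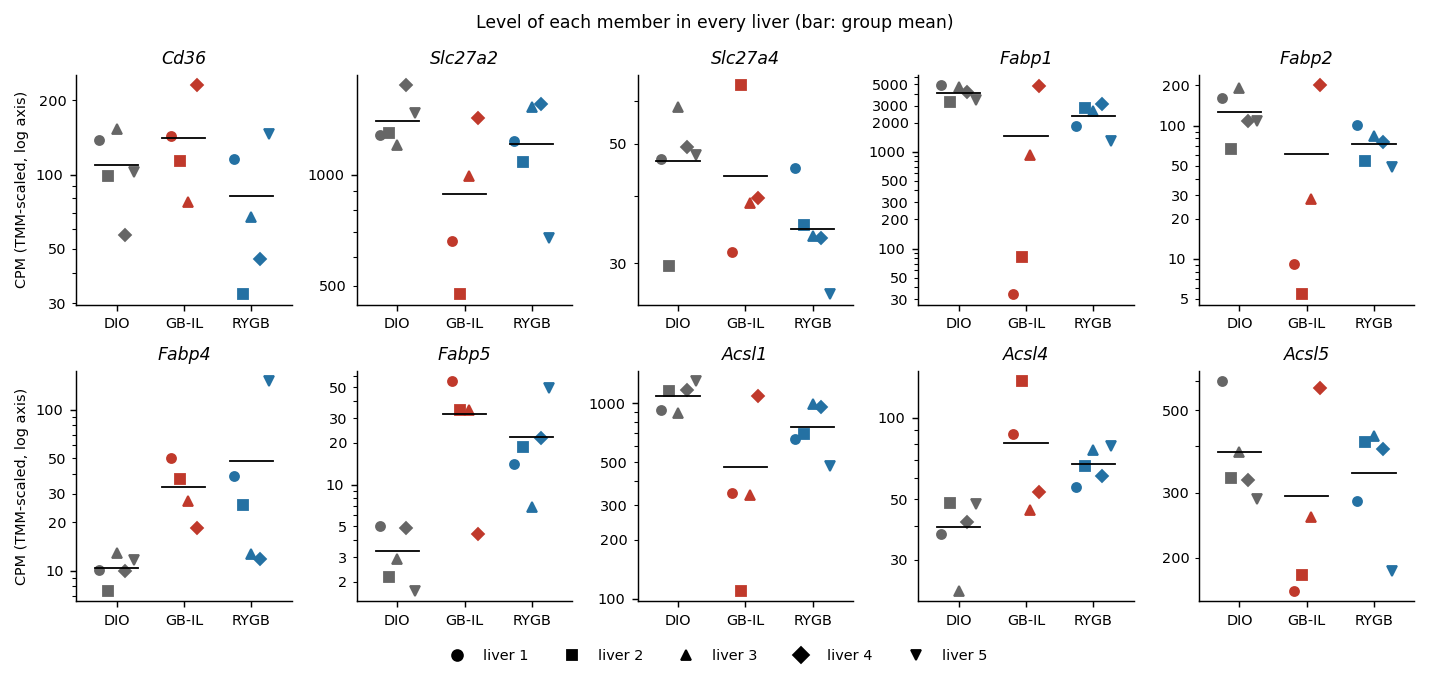
Level of each of the 10 genes in every liver, as TMM-scaled CPM on log axes that differ between panels. The shape of a point gives the number of the liver and the black bar the group mean. For *Fabp1*, *Fabp2* and *Acsl1* GB-IL liver 4 (diamond) lies far above the other 3 GB-IL livers, and for *Fabp5* it lies below them.

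The first comparison asked how liver differed after diversion of bile to the ileum. Of the 10 genes 1 passed the FDR in GB-IL against DIO, the binding protein *Fabp5*, which rose 9.61-fold. Over all genes tested 3.26% passed in either direction, 3.15% being higher and 0.112% lower. At an unadjusted p below 0.05 there were 4 of the 10 genes (*Fabp5*, *Acsl4*, *Fabp4* and *Acsl1*), beside 23.1% of all genes, and 6 of the 10 differed by at least 1 on the log2 scale, beside 13.6%. In 1 gene, *Fabp4*, the groups did not overlap, beside 4.17% of all genes (2.67% with GB-IL higher and 1.51% lower). The median difference of the 10 genes was -0.24, beside 0.039 over all genes, with 4 genes higher and 6 lower. In whole liver RNA, fewer cells of a type and less RNA per cell cannot be told apart.

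*Fabp5* (chr3:10012548-10016607, plus strand, GRCm38) was at 5.08, 2.17, 2.90, 4.87 and 1.73 CPM in DIO livers 1 to 5. In GB-IL livers 1 to 4 it was at 55.2, 34.5, 34.6 and 4.39 CPM. Thus GB-IL livers 1 to 3 exceeded the highest DIO liver, and GB-IL liver 4 did not. In RYGB livers 1 to 5 it was at 13.998, 18.6, 6.87, 21.5 and 49.6 CPM, each of them higher than the highest DIO liver. The log2 fold change of GB-IL against DIO was 3.26 (SE 0.637, adjusted p = 0.0278 by edgeR's quasi-likelihood test, 95% interval 1.90 to 4.62). Without GB-IL liver 4 it was 3.62 (adjusted p = 0.000684). The call depended on the livers in the fit: the adjusted p was between 0.0621 and 0.0942 without any 1 of the 5 DIO livers. It was 0.0719 without GB-IL liver 1 and 0.0581 if GB-IL liver 2 was omitted. In these fits none of all genes tested passed the FDR. The log2 fold change stayed between 2.86 and 3.62 over all omissions. For RYGB against DIO it was 2.73 (SE 0.610), which did not pass the FDR (adjusted p = 0.331). The mouse annotation also lists a processed pseudogene of *Fabp5*, with which the counting could have shared reads.

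*Fabp4* lies 187480 bases from *Fabp5* on the same chromosome (chr3:10204088-10208576, minus strand). It was at 10.2, 7.53, 12.9, 10.01 and 11.6 CPM in DIO livers 1 to 5 and at 49.9, 37.3, 27.1 and 18.4 CPM in GB-IL livers 1 to 4. All 4 GB-IL livers lay above all 5 DIO livers. The RYGB livers were at 38.8, 25.5, 12.6, 11.9 and 150 CPM, so that RYGB livers 3 and 4 fell within the DIO range and RYGB liver 5 stood far above the rest. The log2 fold change was 1.67 (SE 0.607) for GB-IL against DIO and did not pass the FDR (adjusted p = 0.130). It passed without GB-IL liver 4 (1.86, adjusted p = 0.0475) and likewise without RYGB liver 5, which enters through the shared dispersion (1.67, adjusted p = 0.0291). For RYGB against DIO it was 2.19 (SE 0.593, adjusted p = 0.348), and 1.09 without RYGB liver 5 (adjusted p = 0.704). The other genes of this cluster were hardly counted, with no count of *Pmp2*, at most 1 of *Fabp9* and at most 3 of *Fabp12* in any liver.

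Markers of macrophages, Kupffer cells and neutrophils were also higher in GB-IL. The summed level of 8 counted markers of recruited or lipid-laden macrophages was 28.97 to 48.2 CPM in DIO, 397, 294, 137 and 49.8 CPM in GB-IL livers 1 to 4, and 44.4 to 117 CPM in RYGB, and none of these markers was at 0 in any liver. In GB-IL against DIO 5 of the 8 were called higher by edgeR's quasi-likelihood test, and in RYGB against DIO 0 of the 8 were. In RYGB livers 1 to 5 the macrophage sums were 70.1, 54.2, 49.4, 44.4 and 117 CPM. *Fabp5* was at 13.998, 18.6, 6.87, 21.5 and 49.6 CPM in these livers. The sum of RYGB liver 4 was inside the DIO range. Kupffer cell markers summed to 418 to 759 CPM in DIO, 668 to 1953 CPM in GB-IL and 429 to 1093 CPM in RYGB, with 3 of 8 called higher in GB-IL against DIO. Neutrophil markers summed to 5.12 to 10.9 CPM in DIO, 6.54 to 254 CPM in GB-IL and 7.40 to 83.7 CPM in RYGB (4 of 5 called higher in GB-IL). The endothelial sum was 191 to 317 CPM in 13 livers and 620 CPM in RYGB liver 5, the liver with the most *Fabp4*, and 0 of 8 endothelial markers were called in any comparison. RYGB liver 5 also had the highest macrophage, neutrophil and stellate cell and fibroblast sums of its group, 117, 83.7 and 536 CPM. Adipocyte markers summed to 5.16 to 14.5 CPM in DIO, 1.96 to 22.8 CPM in GB-IL and 8.45 to 14.9 CPM in RYGB. In RYGB liver 5 there were 4329 counts of *Fabp4*, and of the 6 adipocyte markers 0 of *Lep*, 1 of *Adipoq*, 1 of *Plin1*, 1 of *Retn*, 17 of *Cfd* and 362 of *Adrb3*. *Adrb3* was above every DIO liver in 5 of 5 RYGB livers (0.88, adjusted p = 0.612). In GB-IL liver 4 the counts of these 6 markers were 35, 49, 23, 10, 311 and 168. The part of these cell types in the levels of *Fabp4* and *Fabp5* was not tested. For the other cell types listed, bile duct markers summed to 4.60 to 10.3, 8.88 to 40.1 and 6.69 to 13.2 CPM in DIO, GB-IL and RYGB, stellate cell and fibroblast markers to 185 to 305, 210 to 795 and 268 to 536 CPM, and enterocyte markers to 1.16 to 2.33, 1.66 to 3.64 and 1.36 to 2.54 CPM. In GB-IL against DIO 2 of 4 bile duct markers, 1 of 6 stellate cell markers and the 1 muscle marker tested were called higher. The stellate cell marker called was *Des* (3.92, adjusted p = 0.0363, edgeR's quasi-likelihood test). The stellate sum of 795 CPM belonged to GB-IL liver 1, the liver with muscle transcripts. The other GB-IL livers were at 210 to 322 CPM. None of the 7 hepatocyte, 2 adipocyte and 1 enterocyte markers tested was called. Without GB-IL liver 1 none of all genes passed, so that none of the marker calls in GB-IL against DIO held.

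**Figure D2:**
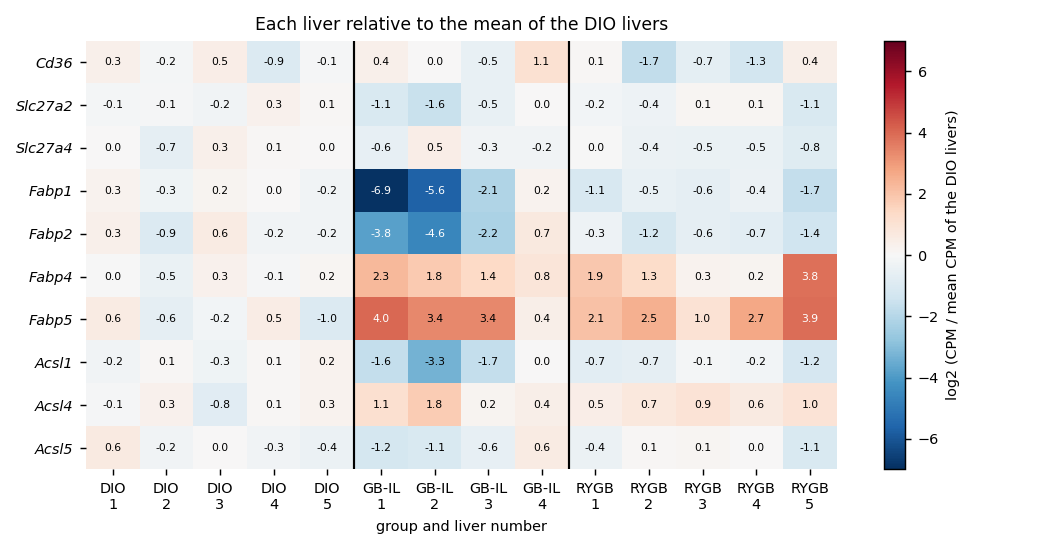
Log2 of the level of each gene in each liver over the DIO mean, with red for higher and blue for lower. GB-IL livers 1 to 3 combine low *Fabp1*, *Fabp2* and *Acsl1* with high *Fabp4* and *Fabp5*, and GB-IL liver 4 stays close to DIO for *Fabp1*, *Acsl1* and *Fabp5*.

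*Fabp1* (chr6:71199827-71205023, plus strand), the gene with the direct repeat shown above, had the widest spread of the 10. It was at 4915, 3268, 4667, 4175 and 3452 CPM in DIO livers 1 to 5. In GB-IL livers 1 to 4 it was at 33.8, 81.9, 938 and 4789 CPM, or 0.826%, 2.00%, 22.9% and 117% of the DIO mean. GB-IL livers 1 to 3 thus fell short of the lowest DIO liver and GB-IL liver 4 was within the DIO range. The group difference was -1.49 (SE 0.936) and did not pass the FDR (adjusted p = 0.333, edgeR's quasi-likelihood test). Without GB-IL liver 4 the log2 fold change of *Fabp1* was -3.55 (adjusted p = 0.0107). In RYGB livers 1 to 5 it was at 1850, 2810, 2632, 3108 and 1281 CPM, all below every DIO liver, with a log2 fold change of -0.81 (SE 0.854, adjusted p = 0.823).

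*Fabp2* (chr3:122895072-122899506, plus strand) was low in the same livers. It was at 161, 66.6, 191, 108 and 109 CPM in DIO livers 1 to 5 and at 9.14, 5.42, 27.9 and 201 CPM in GB-IL livers 1 to 4. GB-IL livers 1 to 3 lay below all DIO livers and GB-IL liver 4 above all of them. The log2 fold change was -1.06 (SE 0.769, adjusted p = 0.394) with all livers and -3.17 (adjusted p = 0.00157, edgeR's quasi-likelihood test) without GB-IL liver 4. The RYGB livers were at 100, 53.9, 82.7, 75.7 and 48.6 CPM, which overlapped DIO (-0.82, SE 0.713, adjusted p = 0.776). *Fabp2* is known from enterocytes. Of 8 enterocyte markers 1 was tested, *Slc5a1*, at 1.01 to 1.57 CPM in DIO and 1.52 to 2.57 CPM in GB-IL (0.68, adjusted p = 0.154), and the part of intestinal cells in the level of *Fabp2* was not tested.

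The make-up of the binding protein family differed most in GB-IL livers 1 and 2. Shares were computed from levels per length, so that no binomial interval belongs to them. *Fabp1* made up 97.5% to 98.7% of the summed level of the 4 binding proteins in DIO. In GB-IL livers 1 to 4 it made up 33.6%, 64.3%, 94.7% and 97.4%. In GB-IL liver 1 *Fabp4* and *Fabp5* made up 30.5% and 30.7%, about as much each as *Fabp1*, and in GB-IL liver 2 they made up 18.1% and 15.2%. Without division by length *Fabp1*, *Fabp4* and *Fabp5* made up 22.9%, 33.7% and 37.3% in GB-IL liver 1. The RYGB livers held 89.6% to 98.0% *Fabp1*, with the lowest share in RYGB liver 5, where *Fabp4* took 6.47%.

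**Figure D3:**
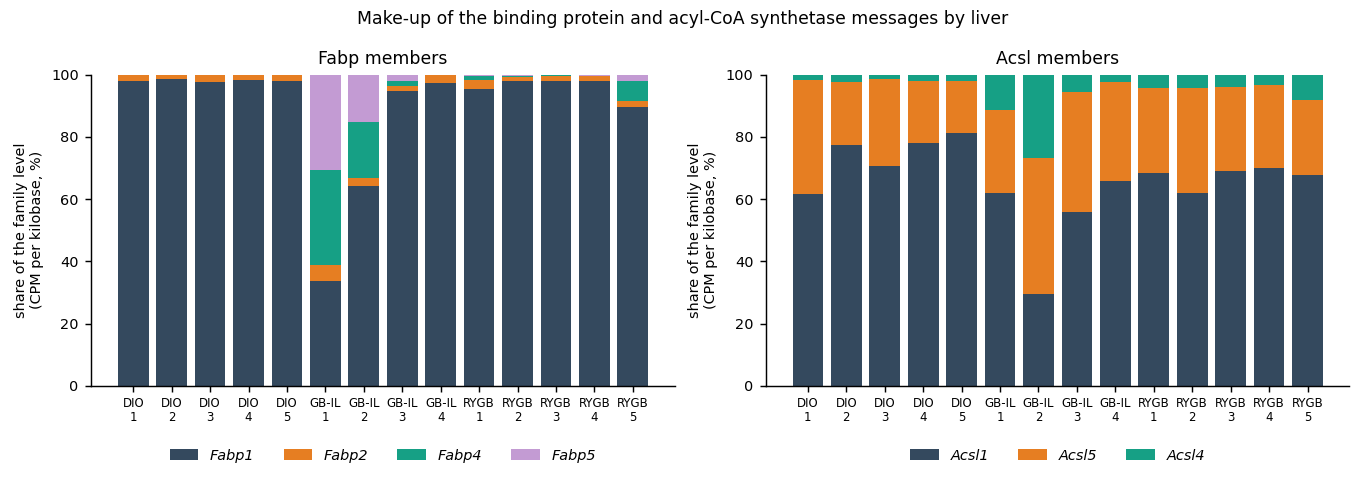
Share of each gene in the summed level per length of the binding proteins and of the 3 acyl-CoA synthetases, for each liver. *Fabp1* holds more than 97% of the binding proteins in all DIO livers and less than 65% in GB-IL livers 1 and 2, where *Acsl4* also holds its largest shares of the synthetases (11.4% and 26.7%).

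Among the acyl-CoA synthetases the hepatic form was lower and the arachidonate form higher in most GB-IL livers. All differences fell short of the FDR in edgeR's quasi-likelihood test when all livers were used. *Acsl1* (chr8:46471037-46536051, plus strand) was at 926, 1155, 893, 1169 and 1289 CPM in DIO livers 1 to 5 and at 347, 110, 341 and 1089 CPM in GB-IL livers 1 to 4. Again 3 GB-IL livers lay below every DIO liver and GB-IL liver 4 lay among them. The log2 fold change was -1.20 (SE 0.469, adjusted p = 0.152, edgeR's quasi-likelihood test). Without GB-IL liver 4 the log2 fold change of *Acsl1* was -2.04 (adjusted p = 0.00279). The RYGB livers were at 656, 691, 991, 950 and 479 CPM, 3 of them below every DIO liver (-0.53, SE 0.431, adjusted p = 0.758).

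*Acsl4* (chrX:142317993-142390535, minus strand), whose upstream stretch is shown above, was at 37.3, 48.6, 23.1, 41.4 and 47.9 CPM in DIO livers 1 to 5. In GB-IL livers 1 to 4 it was at 87.0, 136, 45.6 and 53.3 CPM, and in RYGB livers 1 to 5 at 55.4, 66.6, 76.1, 61.1 and 78.4 CPM. GB-IL livers 1, 2 and 4 and all 5 RYGB livers exceeded the highest DIO liver, and GB-IL liver 3 did not. The log2 fold change was 1.02 (SE 0.293, adjusted p = 0.0684, edgeR's quasi-likelihood test) for GB-IL and 0.77 (SE 0.279, adjusted p = 0.484) for RYGB. The GB-IL difference passed the FDR once GB-IL liver 3 was left out (1.22, adjusted p = 0.0359) and, separately, once GB-IL liver 4 was (1.16, adjusted p = 0.0138). The share of *Acsl4* in the 3 synthetases was 1.35% to 2.40% in DIO, 11.4%, 26.7%, 5.51% and 2.37% in GB-IL livers 1 to 4, and 3.33% to 8.19% in RYGB.

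*Acsl5* (chr19:55251938-55297720, plus strand), found on mitochondria and endoplasmic reticulum, ranged from 288 to 597 CPM in DIO, from 163 to 575 CPM in GB-IL and from 185 to 426 CPM in RYGB. GB-IL livers 1 to 3 lay below every DIO liver and GB-IL liver 4 near the top of the DIO range. The log2 fold change was -0.39 (SE 0.373, adjusted p = 0.519) for GB-IL and -0.18 (SE 0.350, adjusted p = 0.915) for RYGB. Without GB-IL liver 4 the value for *Acsl5* was -0.95 (adjusted p = 0.0422, edgeR's quasi-likelihood test).

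None of the uptake genes passed the FDR in edgeR's quasi-likelihood test with all livers in the fit. *Cd36* (chr5:17781690-17888801, minus strand) was at 138, 98.4, 153, 57.1 and 103 CPM in DIO livers 1 to 5 and at 143, 114, 77.3 and 231 CPM in GB-IL livers 1 to 4. The groups overlapped, with only GB-IL liver 4 above the DIO range (0.36, SE 0.427, adjusted p = 0.600, edgeR's quasi-likelihood test). Without that liver the difference was 0.011 (adjusted p = 0.988). In RYGB livers 1 to 5 it was at 116, 32.7, 67.6, 45.3 and 146 CPM (-0.43, SE 0.405, adjusted p = 0.796). *Slc27a2* (chr2:126552407-126588243, plus strand) ranged from 1200 to 1746 CPM in DIO, and was at 661, 475, 994 and 1424 CPM in GB-IL livers 1 to 4 (-0.65, SE 0.319, adjusted p = 0.232). Here too GB-IL livers 1 to 3 lay below every DIO liver, and *Slc27a2* fell by 0.98 without GB-IL liver 4 (adjusted p = 0.0323). In RYGB it ranged from 672 to 1548 CPM (-0.21, SE 0.297, adjusted p = 0.879). *Slc27a4* (chr2:29802634-29817522, plus strand) ranged from 29.6 to 58.5 CPM in DIO, from 31.5 to 64.3 CPM in GB-IL (-0.091, SE 0.232, adjusted p = 0.825) and from 26.3 to 45.002 CPM in RYGB (-0.42, SE 0.219, adjusted p = 0.608). The 95% intervals for GB-IL against DIO were -0.55 to 1.27 for *Cd36* and -0.59 to 0.40 for *Slc27a4*.

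Liver by liver, GB-IL liver 4 had 6 of the 10 genes within the range of the DIO livers, against 2, 1 and 3 for GB-IL livers 1, 2 and 3. It held the highest value of its group for 6 genes (*Cd36*, *Fabp1*, *Fabp2*, *Slc27a2*, *Acsl1* and *Acsl5*) and the lowest for *Fabp4* and *Fabp5*. Without it 8 of the 10 genes passed the FDR in GB-IL against DIO, beside 3572 of the 14492 genes tested, with *Fabp5*, *Fabp4* and *Acsl4* higher and *Fabp1*, *Fabp2*, *Acsl1*, *Slc27a2* and *Acsl5* lower. Without the liver with muscle transcripts, GB-IL liver 1, none of the 10 and none of all genes passed, with differences of -1.09 for *Fabp1*, -0.71 for *Fabp2*, 1.40 for *Fabp4*, 2.86 for *Fabp5*, -1.09 for *Acsl1*, 0.98 for *Acsl4* and -0.20 for *Acsl5*. When both of these livers were left out, an omission chosen after the values had been seen, 5 passed, beside 1779 of 14751 genes tested (*Fabp1*, *Fabp2*, *Fabp5*, *Acsl1* and *Acsl4*). In RYGB, livers 1 to 5 had 4, 2, 7, 6 and 1 genes within the DIO range.

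**Figure D4:**
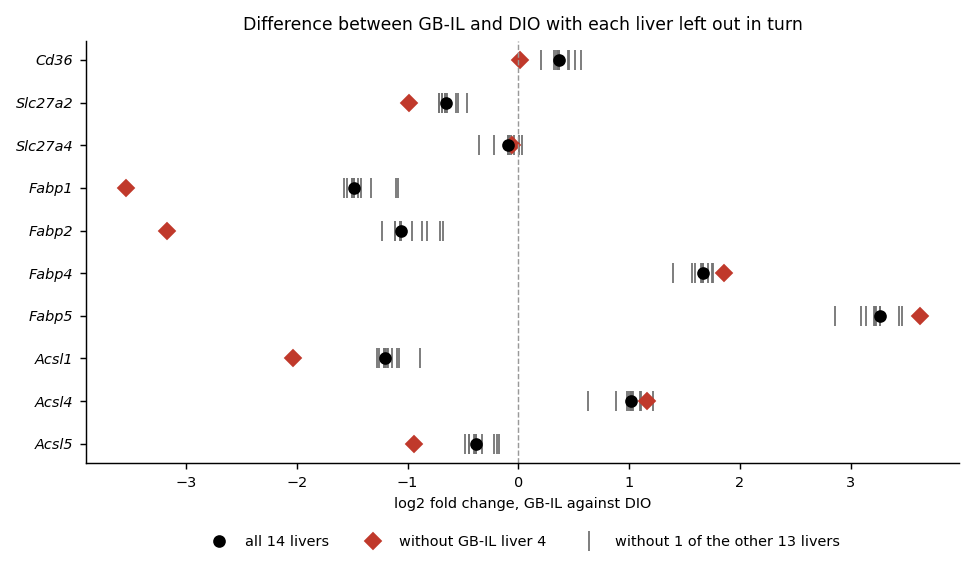
Log2 fold change of each gene with all livers and with 1 liver left out in turn, in GB-IL against DIO: black circles for all livers, red diamonds without GB-IL liver 4 and grey ticks without each of the others. The value without GB-IL liver 4 lies furthest from that with all livers for *Fabp1* (-3.55 against -1.49) and *Fabp2* (-3.17 against -1.06).

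The second comparison asked how liver differed after RYGB. None of the 10 genes passed the FDR in RYGB against DIO by edgeR's quasi-likelihood test, as none of all genes did (0%, with a smallest adjusted p of 0.218). At an unadjusted p below 0.05 there were 3 of the 10 (*Fabp5*, *Fabp4* and *Acsl4*), beside 8.71% of all genes. The groups did not overlap in 3 of the 10, beside 3.53% of all genes (1.87% with RYGB higher and 1.66% lower): *Fabp5* and *Acsl4* were above DIO in 5 of 5 livers and *Fabp1* below in 5 of 5. By other tools 2 genes (DESeq2, beside 97 of all 14252), 3 genes (voom, with quality weights for the samples, beside 1690) and 1 gene (edgeR's exact test, beside 44) passed, and in these 3 tools *Fabp5* was among them (adjusted p = 0.00204, 0.0117 and 0.00750). The others were *Fabp4* by DESeq2 (2.17, adjusted p = 0.0251) and, by voom, *Slc27a4* (-0.47, adjusted p = 0.0343) and *Acsl4* (0.69, adjusted p = 0.0301). The median difference was -0.31, beside 0.012 over all genes, and 2 of the 10 differed by at least 1 on the log2 scale, beside 4.42%.

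**Figure D5:**
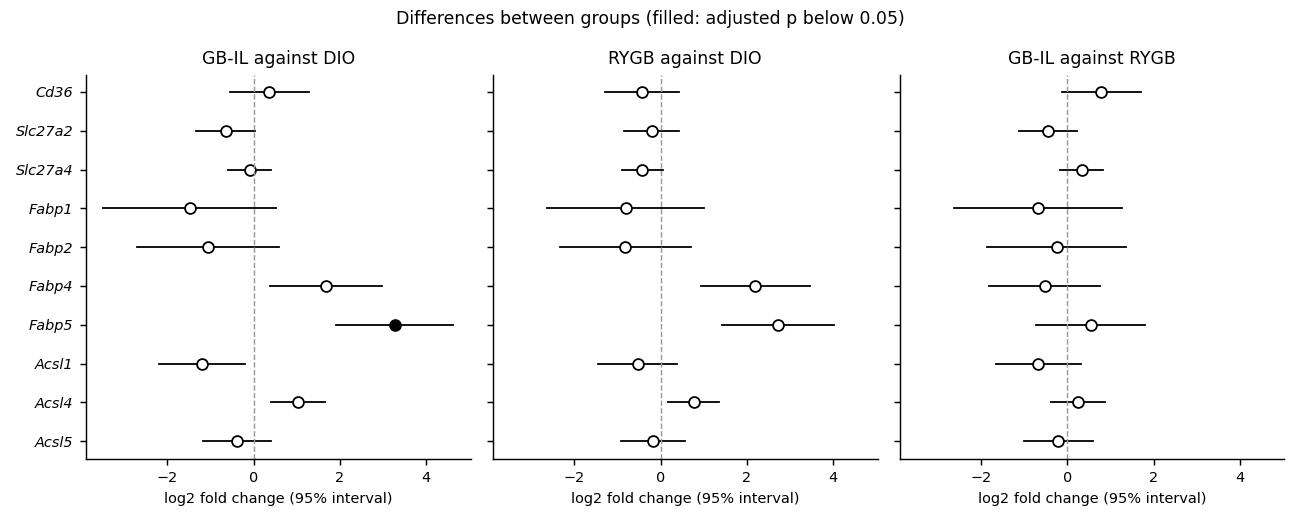
Log2 fold change of the 10 genes with its 95% interval from edgeR's quasi-likelihood test, in GB-IL against DIO, RYGB against DIO and GB-IL against RYGB. The interval of *Fabp5* lies above 0 in both comparisons with DIO (1.90 to 4.62 and 1.43 to 4.03), and every interval of GB-IL against RYGB includes 0.

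GB-IL and RYGB were then compared with each other. None of the 10 genes passed the FDR by edgeR's quasi-likelihood test, as none of all genes did (0%), 0 of the 10 had an unadjusted p below 0.05 (22.1% of all genes), and by DESeq2, voom and the exact test the count was also 0, although these called 845, 115 and 681 of all 14252 genes. In none of the 10 did the groups separate, beside 2.84% of all genes (1.27% with GB-IL higher and 1.57% lower). The smallest adjusted p was that of *Cd36* (0.280), with a GB-IL mean of 141 ± 65.5 CPM (SD, n = 4) beside an RYGB mean of 81.6 ± 48.2 CPM (n = 5). Its log2 fold change was 0.79 with all livers and 0.44 without GB-IL liver 4. For *Fabp5* the difference was 0.54 with a 95% interval from -0.72 to 1.80, so that a difference in either direction was within the error. It was 0.90 without GB-IL liver 4 (adjusted p = 0.183) and 0.13 without GB-IL liver 1 (adjusted p = 0.921). For *Acsl4* the interval was -0.37 to 0.88. Without GB-IL liver 4 3 of the 10 genes, beside 3120 of all 14492 tested in either direction, passed the FDR and were lower in GB-IL than in RYGB: *Fabp1* by -2.74 (adjusted p = 0.0317), *Fabp2* by -2.35 (adjusted p = 0.00964) and *Acsl1* by -1.51 (adjusted p = 0.0143). Both comparisons with DIO used the same 5 DIO livers.

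Of 47 other genes of fatty acid transport, binding, activation and hydrolysis and of the receptors that act on them, 40 were tested, and 0 passed the FDR in any of the 3 comparisons by edgeR's quasi-likelihood test. In GB-IL against DIO 12 of the 40 were higher and their median was -0.35. The thioesterases, which release fatty acids from coenzyme A, had 10 of 12 lower (median -0.55), with *Acot1* at -1.92 (adjusted p = 0.0580) and *Acot12* at -0.71 (adjusted p = 0.0928). *Acot1* was at 4.89, 7.91, 4.495 and 19.0 CPM in GB-IL livers 1 to 4, the first 3 below every DIO liver (16.9 to 55.4 CPM). Of the other synthetases 7 of 9 were lower (median -0.57), with *Acsf2* at -1.03 (adjusted p = 0.118). *Acss1*, which activates acetate in mitochondria, was above all DIO livers in 4 of 4 GB-IL livers (2.52, adjusted p = 0.0515). Its level was 5.57 CPM in GB-IL liver 1, the liver with muscle transcripts, and 0.452 to 0.891 CPM in the other GB-IL livers, against 0.254 to 0.394 CPM in DIO.

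The other binding proteins had 5 of 6 lower in GB-IL (median -0.51), with *Acbd4* at -0.61 (adjusted p = 0.160) and *Scp2*, which carries sterols and acyl-CoA, at -1.04 (adjusted p = 0.225, edgeR's quasi-likelihood test). The other transporters had 4 of 6 higher (median 0.13), with *Got2* at -0.45 (adjusted p = 0.198) and *Cav1*, a caveolar coat protein, at 0.95 (adjusted p = 0.211). Of the receptors and their coactivator 3 of 7 were higher (median -0.13), with *Ppargc1a* at 1.08 (adjusted p = 0.135) and *Nr1i2* at -0.52 (adjusted p = 0.182). In GB-IL livers 1 to 4 *Scp2* was at 636, 470, 2014 and 3834 CPM against 3222 to 3969 CPM in DIO, with GB-IL livers 1 and 2 lowest, as for *Fabp1*.

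In RYGB against DIO 14 of the 40 were higher (median -0.26). *Acot11* was below every DIO liver in 5 of 5 RYGB livers (-1.53, adjusted p = 0.348, edgeR's quasi-likelihood test), at 3.74 to 5.87 CPM against 7.43 to 20.4 CPM. *Acsl3*, a synthetase of lipid droplets, was above every DIO liver in 4 of 5 (1.11, adjusted p = 0.383), as was *Cav2* (0.99, adjusted p = 0.331). The remaining genes named by the same rule were *Acot7* (-0.60), *Acsf3* (-0.48), *Dbi* (-0.52), *Acbd4* (-0.39), *Slc27a5* (-0.47), *Nr1i2* (-0.44) and *Ppargc1a* (0.58). In GB-IL against RYGB 15 of the 40 were higher (median -0.13). The genes named there were *Acot1* (-1.05), *Acot12* (-0.41), *Acss1* (1.99), *Acsl3* (-0.91), *Acbd5* (-0.87), *Scp2* (-0.78), *Cav2* (-0.50), *Cav1* (0.68), *Ppara* (-0.76) and *Ppargc1a* (0.50).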

How the data were processed

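Liver RNA of 14 mice was sequenced, 1 library per liver. The authors amplified the RNA, aligned the reads to mm10 with TopHat 2 and counted them with HTSeq, and the values they deposited are raw counts per gene. Annotation, strand setting and HTSeq version were not given in the sources used here. Different stranded kits are named but not tied to livers, so that kit could not be a term. Whether replicates came from separate cages or operation days is not given, and p-values measure the spread between these livers.

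In R 4.3.3, differences were tested with edgeR 4.0.16 (filterByExpr by group, TMM, a quasi-likelihood fit of 3 group means to all livers, FDR 0.05). SE was the log2 fold change over the root of F. Alternatives used DESeq2 1.42.0, limma 3.58.1 (voom with sample quality weights) and edgeR's exact test. The test was checked on simulated counts. Positions and transcript lengths came from GENCODE M21, matched by Ensembl identifier for 24701 genes. No pair of libraries was identical. All 10 genes are named in every comparison, and of each other pathway list every gene past the FDR or the 2 with the smallest p. The genes and lists were chosen with earlier results of these data known. The markers *Tf*, *Adgre1* and *Cdx1* were not analysed here.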

Additional observations from a re-analysis of the deposited data

Results flagged for a closer look

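In 2 of 30 groups of values, each 1 gene in the livers of 1 group, a single liver lay further from its neighbours than Dixon's criterion allows at the 95% level, which chance gives in about 1 in 20 groups. *Fabp2* in GB-IL liver 4 was at 201 CPM, with the next GB-IL liver at 27.9 CPM (gap over range 0.886). The DIO livers reached 191 CPM, so this liver was close to DIO and the other 3 GB-IL livers were not. *Fabp4* in RYGB liver 5 was at 150 CPM, with the next RYGB liver at 38.8 CPM (gap over range 0.805). The same liver had the highest endothelial marker sum of the 14 livers (620 CPM) and the highest *Fabp5* and *Acsl4* of its group. Its macrophage (117 CPM), neutrophil (83.7 CPM) and stellate cell and fibroblast (536 CPM) sums were also the highest of its group. Those of Kupffer cell and bile duct markers were not. It held the lowest *Fabp1*, *Fabp2*, *Slc27a2*, *Slc27a4*, *Acsl1* and *Acsl5* of its group. The part of other cell types in these values was not tested.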

How the results depend on the processing

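The number of the 10 genes called depended on the tool and on single livers. In GB-IL against DIO it was 3 with DESeq2 (*Fabp4*, *Fabp5*, *Acsl4*, beside 1292 of all 14252 genes) and 3 with voom (*Fabp1*, *Fabp5*, *Acsl1*, beside 589). It was 2 with edgeR's exact test (*Fabp5*, *Acsl4*, beside 1129) and 0 (of all genes 0) with only the compared groups in the fit. When 1 liver was left out the number ran from 0 to 8. Leaving out a DIO liver or 1 of GB-IL livers 1 and 2 gave 0, and of all genes also 0. It was 2 without GB-IL liver 3 or RYGB liver 5, beside 576 and 482 of all genes, and 8 without GB-IL liver 4, beside 3572. Without GB-IL livers 1 and 4 together it was 5, beside 1779. In RYGB against DIO it was 2, 3 and 1 with DESeq2, voom and the exact test (97, 1690 and 44 of all genes), 1 with only the compared groups (33 of all), and 0 in every omission. In GB-IL against RYGB it was 0 to 3 when 1 liver was left out (3 when it was GB-IL liver 4, beside 3120 of all genes) and 2 when GB-IL livers 1 and 4 were, beside 1459. RLE or upper quartile scaling, no filter and a mean of at least 50 counts left these counts as they were. The cause was not tested.

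Of 30 differences 24 kept their sign in all 24 alternatives. The 6 others changed sign in at least 1 alternative. Voom gave 0.13 for *Acsl5* in RYGB against DIO and, in GB-IL against RYGB, 0.47 for *Fabp4* and -0.18 for *Acsl4*. With 1 liver left out the ranges were -0.27 to 0.038 for *Acsl5* in RYGB against DIO, -0.35 to 0.033 for *Slc27a4* in GB-IL against DIO and, in GB-IL against RYGB, -2.35 to 0.13 for *Fabp2*, -0.14 to 0.45 for *Acsl4* and -0.80 to 0.58 for *Fabp4*. Without GB-IL livers 1 and 4, *Cd36* and *Slc27a4* in GB-IL against DIO were at -0.21 and 0.14. The adjusted p of *Fabp5* in GB-IL against DIO ran from 1.32e-05 to 0.0942, and passed in 15 of 24 alternatives.

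With the replicate number as a block 0 of the 10 genes passed in GB-IL against DIO, beside 1 of all 14252 genes. *Fabp4* in GB-IL against RYGB was then at 0.36. Livers share only a number: of 13 same-numbered pairs 2 had a correlation of deviations over 0.1 (range -0.38 to 0.38). The lowest count of any of the 10 genes was 36 (*Fabp5* in DIO). Of 27 group mean shares of a gene in its family, 10 moved by at least 1 SD without division by length.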
